A study of Homo sapiens with 2 samples.

Results

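SUB1 was knocked down in PC3 cells with a first siRNA duplex, SUB1 siRNA 1, and the treated cells were compared with cells given Non-T siRNA on 1 dual-colour whole human genome array. That array was chosen by its label, and it is 1 of 2 arrays in the series. It measured 19218 genes and unnamed transcript features, all of which are described here. PC3 is an established prostate cancer cell line derived from a metastasis. Cells were transfected once and again 24 h later, and RNA was taken 72 h after the first transfection, alike for the knockdown and the Non-T siRNA cells. RNA from the SUB1 siRNA 1 cells carried Cy5 and RNA from the Non-T siRNA cells carried Cy3. The second array set SUB1 siRNA 2 against Non-T siRNA in the same way and is quoted beside the first. Because both arrays use a Non-T siRNA control, and the labels do not say whether it was the same RNA, the ratios of the siRNAs share that side and are given next to each other without a correlation.

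SUB1, also called PC4, is a small nuclear protein that binds single-stranded DNA and acts as a coactivator of transcription by RNA polymerase II. An siRNA duplex guides the RNA interference machinery to a matching transcript, which is then cut. Cells given different duplexes against the same gene share the loss of that gene, while each duplex can also pair partially with other transcripts through its own seed. The sequences of the duplexes were not in the files used here.

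There was 1 array with no dye swap, so no value below has a biological replicate or a test, and a dye bias of a probe and a difference between the cells cannot be told apart. The error that the array itself gives is technical. Among 191 probes spotted 9 or 10 times, the SD of the log2 ratio between spots had a median of 0.0796, and its 95th percentile was 0.139. Of the spots for genes, 54.3% in Cy3 and 67.2% in Cy5 were well above background, and 0 were saturated. The labelled cell type was checked against fixed markers. All 8 epithelial and PC3 genes (KRT8, KRT18, KRT19, EPCAM, CDH1, VIM, CD44 and PLAU) were well above background in both channels. Of genes known to be low in PC3, KLK3 and KLK2 had at least 1 probe well above background in both channels and TMPRSS2 in Cy5 alone. Of the markers of leukocytes, endothelium and fibroblasts, CD3E, PECAM1, COL1A1 and DCN had at least 1 probe well above background, and PTPRC and CDH5 had none. Their part in the results was not tested.

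SUB1 itself was the gene with the largest decrease on the array. Its normalized signal was 8684 in the Non-T siRNA channel and 882 in the SUB1 siRNA 1 channel, so 10.2% of the control signal remained. On the second array the signals were 7589 with Non-T siRNA and 791 with SUB1 siRNA 2. These give log2 ratios of -3.30 for siRNA 1 and -3.26 for siRNA 2, and the 4 SUB1 probes ranged from -3.75 to -1.81 with siRNA 1. The probe used for the gene lies at chr5:32627546-32634880 in hg18, the build named in the array files, and spans more than 1 exon of SUB1. With siRNA 2 the share of the control signal left was 10.4%, close to that with siRNA 1.

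Most genes sat close to no difference. The log2 ratio (SUB1 siRNA 1 against Non-T siRNA) was within 0.25 of 0 for 68.6% of genes and within 0.5 for 91.8%, and its median was 0.02. It was above 0 for 54.1% and below 0 for 45.9%. By the fold change of 2 that the study's methods set, 40 genes were higher with SUB1 siRNA 1, which is 0.208% of those measured, and 117 were lower, which is 0.609%, or 0.817% together. The siRNA 2 array held 118 higher (0.614%) and 205 lower (1.07%). Higher genes made up 25.5% of the genes past 2-fold on the siRNA 1 array. That split moved with the scaling: the higher genes were 71.0% with centring on the median in place of loess, 82.1% with the scanner software's processed signals, 37.0% with a normexp offset of 16 and 36.7% in the authors' own table. The number of higher against lower genes thus depends on the scaling.

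**Figure D1:**
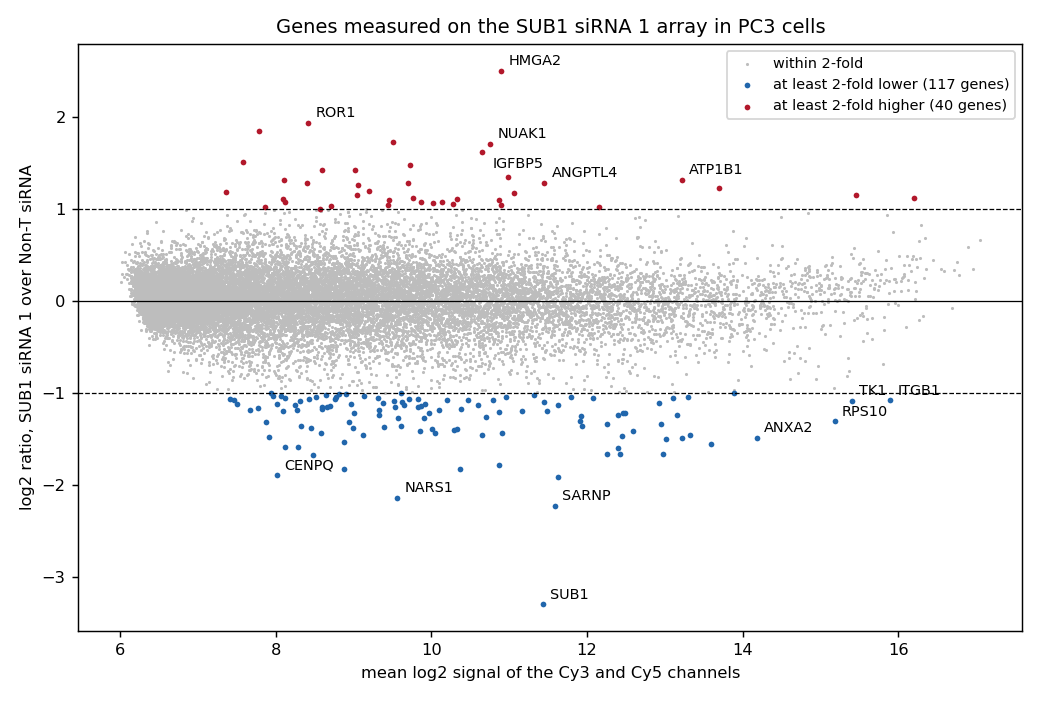
Log2 ratio between SUB1 siRNA 1 and Non-T siRNA (vertical axis) against the mean log2 signal of both channels (horizontal axis) for 19218 genes on 1 array; dashed lines mark a 2-fold difference. The 117 lower genes (blue) extend to SUB1 at -3.30 and the 40 higher genes (red) to HMGA2 at 2.50, while most genes (grey) lie within 0.5 of 0. A second HMGA2 probe, not drawn, gave 0.17.

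The 117 lower genes fell into groups by what siRNA 2 showed for them. In 27 of them siRNA 2 was also at least 2-fold lower, in 30 it was 0.5 to 1 lower on the log2 scale, and in 59 it was within 0.5 of 0. The remaining gene was PNRC2, a nuclear receptor coactivator, at -1.18 with siRNA 1 and 0.54 with siRNA 2; it was picked out after its values were seen. Over all genes measured, 0.307% were at least 2-fold lower with siRNA 1 and within 0.5 of 0 with siRNA 2. The 59 are not all separate genes: 6 are features of RPS10 or similar transcripts and 4 of annexin A2 or its copies. With siRNA 2, 15 of the 59 were above 0, against 10303 of all 19218, and their median was -0.09. Being within 0.5 of 0 thus does not mean that siRNA 2 left a gene unchanged. These 59, of which 39 have a RefSeq gene name, held no member of a 60-gene list of mitosis and spindle genes, while the 27 lower with both held 14. The list has 60 of the 19218 features measured, so few would fall among 59 in any case. With siRNA 2, 35 of its genes were at least 2-fold lower, so the limit on siRNA 2 had kept those out beforehand. No contrast between the groups is drawn from these counts. Among the 40 higher genes, 10 were at least 2-fold higher with both duplexes, 12 were 0.5 to 1 higher with siRNA 2, and 17 (0.0885% of all genes) were within 0.5 of 0. CITED4, a coactivator that binds CBP and p300, was opposite, with 1.28 and -0.53. The 10 higher with both duplexes hold ANGPTL4 and an unnamed feature whose probe overlaps the ANGPTL4 probe, so they are not all separate genes.

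The deepest decreases that siRNA 2 did not show were in SARNP and NARS1. SARNP encodes a SAP-domain RNA-binding protein of the TREX complex, which couples transcription to mRNA export. Its signals were 6677 with Non-T siRNA and 1425 with SUB1 siRNA 1, and 6218 and 6994 on the siRNA 2 array. The SUB1 siRNA 1 channel was the low one, and the other channels lay close together. These give log2 ratios of -2.23 for siRNA 1 and 0.17 for siRNA 2, and a second SARNP probe gave -2.08 and 0.15. Of 31 mRNA export genes measured, SARNP was the 1 that was at least 2-fold lower, and 23 were below 0 with a list median of -0.13 against 0.02 for all genes. Under the alternatives that median ranged from -0.14 to 0.09 and so crossed 0.

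NARS1, the cytosolic enzyme that charges tRNA with asparagine, showed the same picture among the aminoacyl-tRNA synthetases. Its signals were 1588 with Non-T siRNA and 360 with SUB1 siRNA 1, then 1619 and 1544 on the siRNA 2 array. These give log2 ratios of -2.14 for siRNA 1 and -0.07 for siRNA 2. No other member of the 34 measured synthetases reached 2-fold, although EPRS1, which charges tRNA with glutamate and proline, came near with -0.96 and -0.07. The list median was -0.10 with 26 of 34 members below 0, and it turned above 0 under some alternatives, among which it ranged from -0.17 to 0.07.

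Other genes of this kind included enzymes and structural proteins of several compartments. HSD17B10, a mitochondrial dehydrogenase that is also a subunit of mitochondrial RNase P, had signals of 3470 and 1005 on the siRNA 1 array, then 3347 and 2928 with siRNA 2, with log2 ratios of -1.79 and -0.19. ARL6IP6 had -1.83 and -0.05, LMNB2, a B-type lamin of the nuclear envelope, -1.49 and -0.39, and EEF1AKMT4, a lysine methyltransferase of the elongation factor eEF1A, -1.46 and 0.17. ITGB1, the beta subunit common to many integrins, had signals of 88840 and 41995 on the siRNA 1 array against 72114 and 63859 on the siRNA 2 array. Its log2 ratios were -1.08 and -0.18, its 4 probes ranged from -1.08 to -0.67 with siRNA 1, and it was the 1 of 20 integrin and laminin genes past 2-fold. HSP90AA1, the inducible cytosolic HSP90, lay at the edge of 2-fold, with signals of 21405 and 10700 on the siRNA 1 array and a log2 ratio of -0.48 on the other. Its 4 probes ranged from -1.13 to -0.76 with siRNA 1, and all were below 0 with siRNA 2 as well, from -0.65 to -0.29, so that 1 of them lay outside 0.5 there. Further members, picked out after their values were seen, were the mitochondrial enzymes GLUD1 (-1.19 and -0.26) and DLAT (-1.04 and 0.00), the polyprenol reductase SRD5A3 (-1.13 and 0.01), the activin-binding protein FST (-1.24 and -0.26), the antiproliferative BTG3 (-1.16 and -0.02) and the transcytosis protein MAL2 (-1.36 and 0.08).

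**Figure D2:**
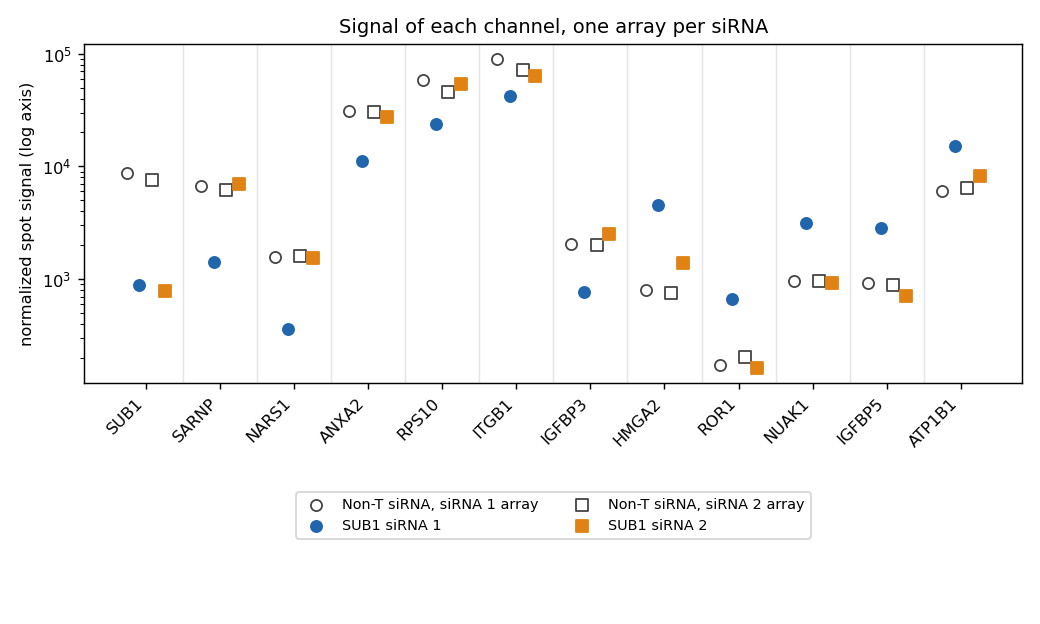
Normalized spot signal (log axis) of 12 genes in each of the 4 channels: Non-T siRNA (open) and SUB1 siRNA (filled), circles for the siRNA 1 array and squares for the siRNA 2 array, 1 value per channel. SUB1 is low in both filled channels, SARNP, NARS1, ANXA2, RPS10, ITGB1 and IGFBP3 are low in the siRNA 1 channel, and HMGA2, ROR1, NUAK1, IGFBP5 and ATP1B1 are high there.

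RPS10 and its processed copies formed a family with many lower probes, which was picked out after its values were seen. Apart from annexin A2, no other family was searched for probes of similar transcripts. RPS10 is a protein of the small ribosomal subunit, and the genome holds many near-identical copies of its sequence, so these probes cannot be counted as separate genes. All 12 probes annotated to RPS10 or to a transcript similar to it were below 0 with siRNA 1, and 11 were at least 2-fold lower. Their log2 ratios ranged from -1.63 to -0.97 with a median of -1.49, whereas with siRNA 2 they ranged from -0.14 to 0.23. The probe used for RPS10 itself had signals of 58572 and 23593 on the siRNA 1 array, then 45590 and 53568 with siRNA 2. The other 84 cytosolic ribosomal protein genes had a median of -0.07 and 81 of them lay within 0.5 of 0, from -0.64 for RPL39L to 0.45 for RPL38. The RPS10 probe median stayed between -1.49 and -1.15 under the 7 other ways of computing the ratios, while the median of the whole ribosomal list, over all alternatives, crossed 0, from -0.11 to 0.33. These 12 probes make 6 of the 117 lower features.

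Annexin A2, also picked out after its values were seen, showed the same picture. ANXA2 encodes a calcium-dependent membrane-binding protein that pairs with S100A10 at the plasma membrane and serves as a cell-surface platform for plasminogen activation. Its signals were 31181 with Non-T siRNA and 11103 with SUB1 siRNA 1, and 30561 and 27649 on the siRNA 2 array. The 7 probes annotated to ANXA2, its pseudogenes ANXA2P1 and ANXA2P3 or transcripts similar to it had log2 ratios from -1.92 to -0.84 with siRNA 1, with a median of -1.49, and from -0.38 to -0.09 with siRNA 2. As with RPS10, probes for the pseudogenes may read the parent transcript. Among 10 annexin genes, ANXA10 (-1.13 and -0.03) and ANXA7 (-1.10 and -0.27) were also at least 2-fold lower with siRNA 1 alone. ANXA1 had -0.66 and -0.10, and the other 6 lay between -0.34 for ANXA3 and 0.26 for ANXA6 with siRNA 1. With siRNA 2, ANXA5 of these was at least 2-fold lower (0.02 and -1.19), the reverse of the ANXA2 picture, and the other 5 lay between -0.45 and 0.14. ANXA7 and ANXA10 stayed below 0 under every scaling tried but came within 2-fold under some, with ranges of -1.11 to -0.85 and -1.26 to -0.86. S100A2, a calcium-binding protein of epithelial cells, had -1.25 and -0.50.

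**Figure D3:**
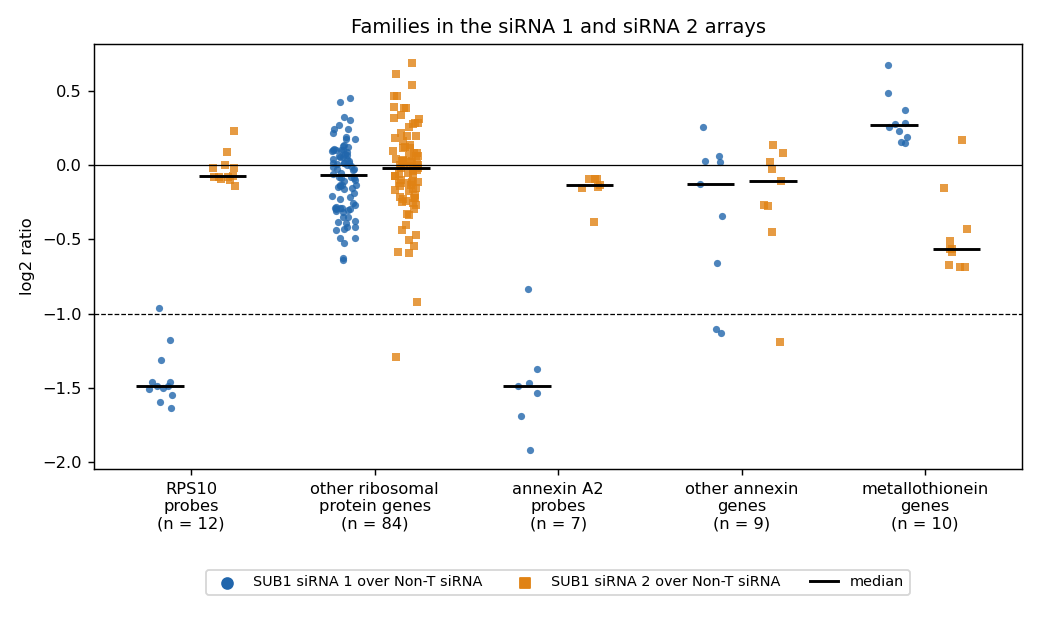
Log2 ratio over Non-T siRNA (vertical axis) with SUB1 siRNA 1 (blue circles) and SUB1 siRNA 2 (orange squares) for RPS10 probes, other cytosolic ribosomal protein genes, annexin A2 probes, other annexin genes and metallothionein genes; black bars are medians and the dashed line marks 2-fold lower. RPS10 and annexin A2 probes have a median of -1.49 with siRNA 1 and lie within 0.5 of 0 with siRNA 2, and metallothioneins lie above 0 with siRNA 1.

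The insulin-like growth factor binding proteins, secreted proteins that carry insulin-like growth factors and limit or prolong their action, differed in direction. IGFBP3 had signals of 2042 and 771 on the siRNA 1 array, then 2023 and 2523 with siRNA 2. Its log2 ratio was -1.40, with an SD of 0.0756 over 9 spots, against 0.32 with siRNA 2, and a second probe gave -0.94 and -0.11. IGFBP4 had -1.46 and -0.58, and IGFBP6 had -0.99 and 0.02. IGFBP5 went the other way: its signals were 920 and 2821 on the siRNA 1 array, then 899 and 714 with siRNA 2. All 3 IGFBP5 probes were higher with siRNA 1, from 0.85 to 1.62, and lower with siRNA 2, from -1.04 to -0.33. The remaining member, IGFBP2, had -0.13 and 0.17 and changed sign with the scanner software's processed signals; the others kept theirs under each scaling.

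The higher genes that siRNA 2 left within 0.5 of 0 were led by ROR1, a receptor tyrosine kinase-like protein that binds WNT5A. Its signals were 175 with Non-T siRNA and 671 with SUB1 siRNA 1, and 205 and 165 on the siRNA 2 array. Its log2 ratios were 1.94 and -0.31, and a second probe gave 1.67 and -0.03. NUAK1, a kinase related to AMPK, had signals of 959 and 3132 on the siRNA 1 array, then 975 and 927 with siRNA 2, with log2 ratios of 1.71 and -0.07. The other 3 channels of NUAK1 lay within a narrow band. ATP1B1, the beta subunit of the sodium-potassium pump, had signals of 6052 and 15069 against 6461 and 8217, with 1.32 and 0.35, and its second probe gave 1.43 and 0.52.

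Other genes in this group were LIMCH1, an actin-associated protein that acts on non-muscle myosin (1.85 and 0.31), GASK1B (1.51 and 0.02), SPTLC3, a subunit of the enzyme that starts sphingolipid synthesis (1.42 and 0.28), CEMIP2, a cell-surface hyaluronidase (1.15 and 0.30), RBP4, the plasma carrier of retinol (1.10 and -0.16), and PRKCA, a classical protein kinase C (1.08 and -0.44). Several of these rest on 1 probe of a pair. The second probe of LIMCH1 gave 0.44, that of SPTLC3 0.44 and that of PRKCA -0.07 with siRNA 1. Both ROR1 probes were past 2-fold. LIMCH1 and GASK1B were dim with Non-T siRNA on the siRNA 1 array, at 116 and 113 against a median of 260 over all genes. Under the alternatives their ratios ranged from 0.44 to 2.88 and from 1.41 to 2.49. ROR1 was also below that median with Non-T siRNA, at 175, and its ratio ranged from 1.67 to 2.57.

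**Figure D4:**
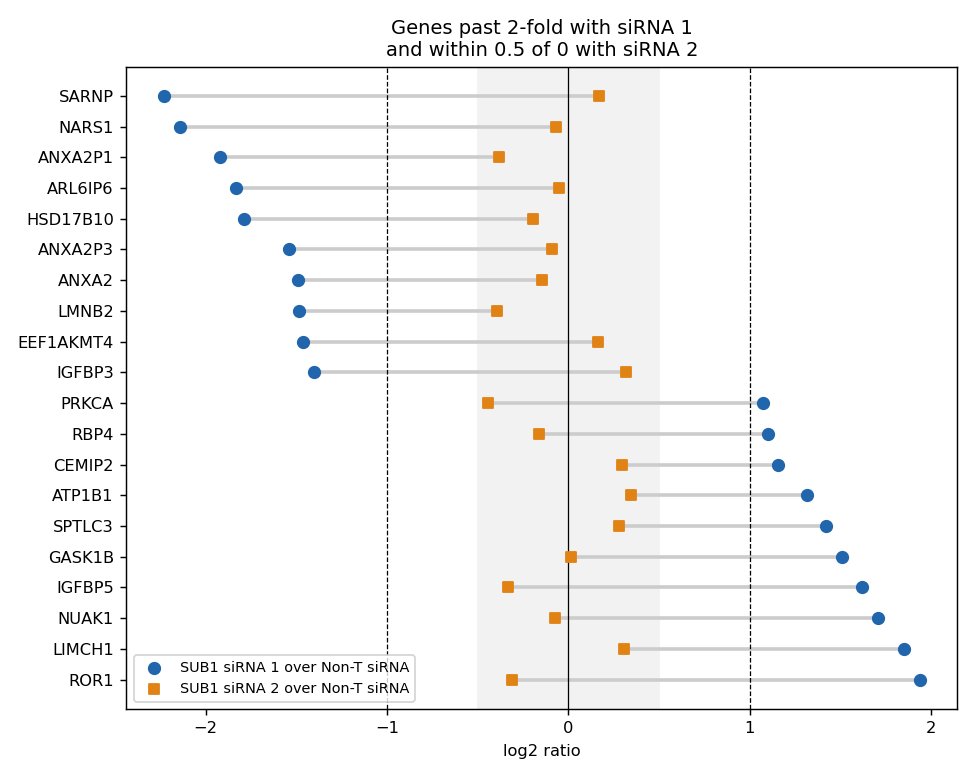
Log2 ratio over Non-T siRNA with SUB1 siRNA 1 (blue circles) and SUB1 siRNA 2 (orange squares) for the 10 genes lowest and the 10 genes highest with siRNA 1 among those within 0.5 of 0 with siRNA 2 (grey band); dashed lines mark 2-fold. The values run from -2.23 for SARNP to 1.94 for ROR1 with siRNA 1, and the grey band is how the genes were chosen.

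Among the probes used for genes, the largest increase was in HMGA2, an architectural chromatin protein of embryonic and tumour cells, but its probes differed. The probe used for the gene had signals of 803 and 4550 on the siRNA 1 array, then 756 and 1401 with siRNA 2, with log2 ratios of 2.50 and 0.89. It lies at chr12:64646056-64646115 in hg18. The second probe, at chr12:64518599-64643300 across an intron, gave 0.17 and -1.13. The probe used was chosen by its mean signal, in which the SUB1 siRNA 1 channel counts. In the Non-T siRNA channels the second probe was the brighter, with 996 against 803 and 943 against 756. The increase of 2.50 thus depends on that choice of probe. Other genes higher with siRNA 1 and in the same direction with siRNA 2 were HOXA13, a posterior homeobox factor (1.47 and 1.08, second probe 0.65 and 0.25), ANKRD46 (1.42 and 1.18), ANGPTL4, a secreted inhibitor of lipoprotein lipase (1.28 and 1.28), CAMK2N1, an inhibitor of CaM kinase II (1.35 and 0.94), BMF, a BH3-only death promoter (1.28 and 0.75), and DAAM1, a formin of WNT signalling (1.26 and 0.55). ANGPTL4 had signals of 1795 and 4367 on the siRNA 1 array, then 1929 and 4691 with siRNA 2, so that its channels matched pair by pair.

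Many of the decreases in common with siRNA 2 were in cell division genes. Entry into mitosis needs a burst of transcription in G2, driven in part through CCAAT boxes, which bind NF-Y, and through TTTGAA, the letters of the cell cycle homology region bound by the MuvB complex with MYBL2 and FOXM1. All 60 genes of the mitosis and spindle list were below 0 with siRNA 1, against 45.9% of all genes, and 14 were at least 2-fold lower. Their median was -0.81 with siRNA 1 and -1.06 with siRNA 2. PLK1, the kinase that drives mitotic entry and spindle assembly, had signals of 1515 and 569 on the siRNA 1 array, then 1540 and 466 with siRNA 2, with -1.41 and -1.72, while a second, dimmer PLK1 probe gave -0.16 and -0.30. CDK1, the mitotic kinase itself, had 2866 and 1392 against 2919 and 863, with -1.04 and -1.76. In RNA of whole cultures, fewer cells in division and less of each transcript per cell cannot be told apart.

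The other members past 2-fold were the spindle protein HMMR (-1.40 and -1.69), the checkpoint protein MAD2L1 (-1.40 and -1.67), the kinase PBK (-1.36 and -1.77), DLGAP5 (-1.27 and -1.44), the condensin subunit NCAPG (-1.27 and -1.56), the kinetochore proteins CENPF (-1.26 and -1.55) and NUF2 (-1.15 and -1.60), the kinesin KIF23 (-1.22 and -1.64), the securin PTTG1 (-1.22 and -1.16), the B-type cyclins CCNB2 (-1.21 and -1.74) and CCNB1 (-1.08 with siRNA 1), and the transcription factor FOXM1 (-1.07 and -1.24). The list ranged from PLK1 to the centromere protein SGO2 at -0.13. A few division genes outside the list were lower with siRNA 1 than with siRNA 2. The inner kinetochore gene CENPQ had signals of 500 and 135 on the siRNA 1 array, then 498 and 320 with siRNA 2, with -1.89 (SD 0.0956 over 10 spots) and -0.64. The condensin gene NCAPD2 had -1.59 and -0.79, and SHCBP1, which acts at the midbody, -1.58 and -1.07.

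The 120 bases just upstream of the RefSeq start were read for 12 of the mitosis and spindle genes past 2-fold, with CCAAT and TTTGAA, on either strand, in capitals. Of these, 5 held both, 3 held CCAAT alone (CCNB1, CENPF and PTTG1), NCAPG held TTTGAA alone, and CDK1, MAD2L1 and NUF2 held neither. Among 17 of the named genes past 2-fold with siRNA 1 and within 0.5 of 0 with siRNA 2, 1 held both. Another 5 held CCAAT alone and 11 held neither. The share over all genes was not counted for this window, so no contrast is drawn from these counts. CCNB2, HMMR, PLK1 and KIF23 are printed because they hold both, so they do not stand for the group, and CDK1 because it holds neither. SARNP, ANXA2 and ROR1, past 2-fold with siRNA 1 and within 0.5 of 0 with siRNA 2, are printed beside them. GASK1B, which is of that kind and holds both runs, is printed as well. Each is given 5′ to 3′ on the strand of the gene, in GRCh38.p14: CCNB2 at chr15:59105026-59105145 (plus), HMMR at chr5:163460512-163460631 (plus), PLK1 at chr16:23678769-23678888 (plus), KIF23 at chr15:69414229-69414348 (plus), CDK1 at chr10:60778211-60778330 (plus), SARNP at chr12:55817725-55817844 (minus), ANXA2 at chr15:60397987-60398106 (minus), ROR1 at chr1:63773897-63774016 (plus) and GASK1B at chr4:158173026-158173145 (minus).
CCNB2: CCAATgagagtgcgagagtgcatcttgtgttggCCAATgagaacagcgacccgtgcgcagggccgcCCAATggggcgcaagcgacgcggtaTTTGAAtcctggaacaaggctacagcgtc
HMMR: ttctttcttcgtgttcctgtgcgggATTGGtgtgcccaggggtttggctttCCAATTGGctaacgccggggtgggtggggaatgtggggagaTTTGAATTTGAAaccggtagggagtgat
PLK1: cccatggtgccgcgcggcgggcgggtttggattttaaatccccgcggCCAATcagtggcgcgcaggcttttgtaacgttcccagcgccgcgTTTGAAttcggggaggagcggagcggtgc
KIF23: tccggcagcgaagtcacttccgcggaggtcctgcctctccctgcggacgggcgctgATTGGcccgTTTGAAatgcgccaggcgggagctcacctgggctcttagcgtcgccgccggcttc
CDK1: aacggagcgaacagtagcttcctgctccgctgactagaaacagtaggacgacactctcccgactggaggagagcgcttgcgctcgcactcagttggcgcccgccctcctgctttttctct
SARNP: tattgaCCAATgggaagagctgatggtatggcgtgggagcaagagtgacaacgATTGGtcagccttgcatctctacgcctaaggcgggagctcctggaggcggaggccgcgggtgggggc
ANXA2: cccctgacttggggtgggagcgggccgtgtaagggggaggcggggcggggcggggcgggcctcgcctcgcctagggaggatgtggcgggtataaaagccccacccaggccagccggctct
ROR1: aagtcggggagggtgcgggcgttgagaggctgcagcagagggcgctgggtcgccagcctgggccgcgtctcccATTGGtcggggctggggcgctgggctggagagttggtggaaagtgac
GASK1B: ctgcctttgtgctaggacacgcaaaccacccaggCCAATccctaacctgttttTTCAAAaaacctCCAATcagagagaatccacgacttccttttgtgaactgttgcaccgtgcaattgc

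Across whole RefSeq promoters of 250 bases before and 50 after the start, TTTGAA on either strand was in 62.7% of 51 mitosis and spindle promoters and in 10.0% of the promoters of 10512 measured genes, against 15.4% of all 27305 promoters. Of the lower genes with a promoter, it was in 38.6% of 44 that were also at least 0.5 lower with siRNA 2, and in 12.1% of 33 that siRNA 2 left within 0.5 of 0. CCAAT was in 35.7% of all promoters, in 37.0% of measured genes, in 52.3% of the former and in 36.4% of the latter. Both letter runs were together in 49.0% of the mitosis list and 29.5% of the lower genes shared with siRNA 2. They were together in 6.06% of the lower genes that siRNA 2 left within 0.5 of 0. Over measured genes the share was 4.38%, and over all promoters it was 6.08%. The E2F letters TTTCCCGC or TTTGGCGC were in 0 of the 78 lower genes with a promoter and in 3.65% of measured genes and 2.31% of all promoters, counted on either strand as well. In the mitosis and spindle list they were in 3 of 51 promoters, or 5.88%. Counts this small were not tested. Runs that overlap were each counted. The shares for the mitosis list and for the shared genes partly repeat each other, since 14 of the shared genes are on the mitosis list, and a run of letters is no evidence that a factor binds.

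DNA replication genes were lower to a smaller degree. Of 50 measured, 43 were below 0 and the median was -0.35 with siRNA 1 and -0.56 with siRNA 2. RRM2, a subunit of the enzyme that makes deoxyribonucleotides, had -1.14 and -1.25 (second probe -0.41 and -0.48), and TK1, thymidine kinase, had signals of 63116 and 29730 against 65684 and 22271, with -1.09 and -1.56. CDT1, a licensing factor of replication origins, had -0.97 and -1.34. DNA repair genes had a median of -0.22, with 36 of 47 below 0 and none at 2-fold, the lowest being FANCI of the Fanconi pathway (-0.93 and -1.10).

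**Figure D5:**
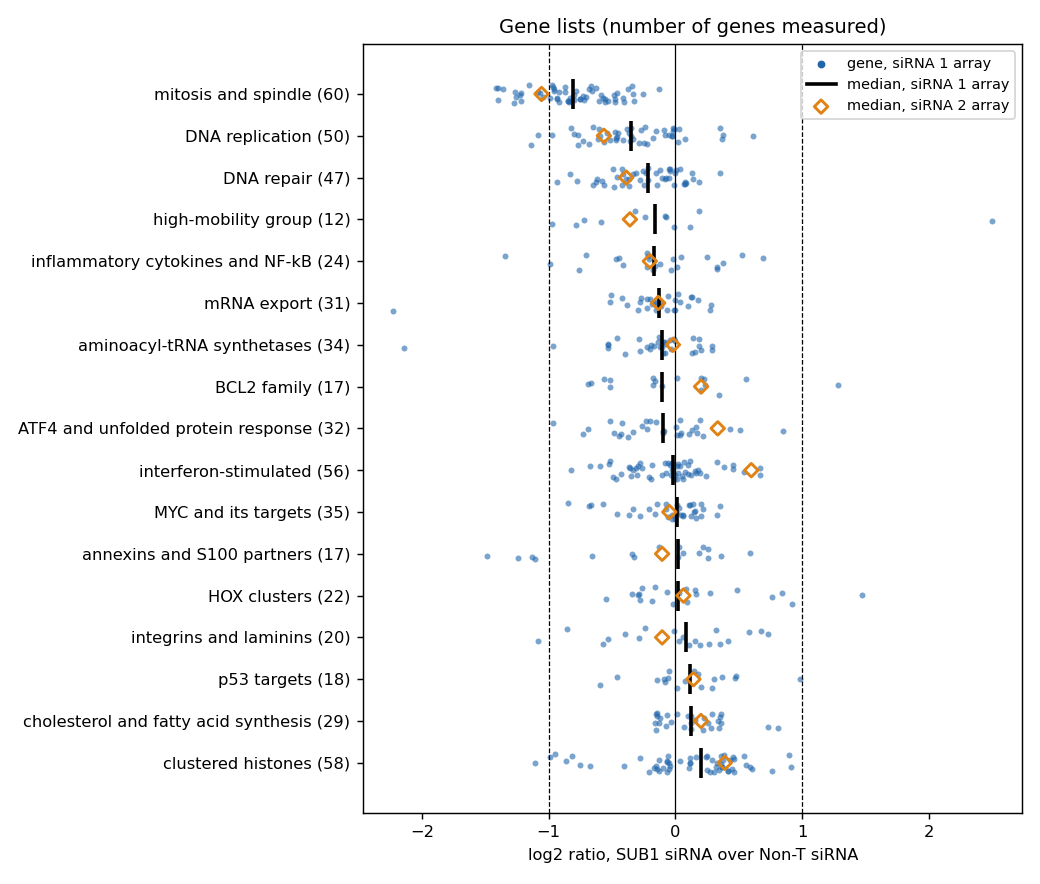
Log2 ratio over Non-T siRNA (horizontal axis) for 17 gene lists: each blue point is a gene on the siRNA 1 array, the black bar its list median and the orange diamond the list median on the siRNA 2 array; dashed lines mark 2-fold. The mitosis and spindle list has medians of -0.81 and -1.06, whereas the interferon-stimulated list has -0.02 with siRNA 1 and 0.60 with siRNA 2.

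The interferon-stimulated list stood near all genes on the siRNA 1 array. Of 56 genes measured, 30 were below 0, none was past 2-fold and the median was -0.02, whereas with siRNA 2 the median was 0.60 and 13 were at least 2-fold higher. RTP4, an interferon-induced transporter of receptors, had signals of 269 and 427 on the siRNA 1 array, then 311 and 1256 with siRNA 2, with 0.67 and 2.01. ISG20, an exonuclease, had -0.82 and 0.39, and DDX60, a helicase of RNA sensing, -0.67 and -0.19. Targets of ATF4 and of the unfolded protein response also lay near 0 with siRNA 1, with a median of -0.10 against 0.33 with siRNA 2. TRIB3, a pseudokinase induced by ATF4, had -0.97 and 0.69, and STC2 had 0.85 and 1.23. The medians of both lists crossed 0 under other scalings, from -0.08 to 0.20 and from -0.23 to 0.15.

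Metallothioneins, small proteins that bind zinc and copper, were the list whose members were all above 0 with siRNA 1. The 10 genes ranged from 0.15 for MT1A to 0.68 for MT2A with a median of 0.27 and none past 2-fold, and with siRNA 2 the median was -0.57. All 10 stayed above 0 under each of the 7 other ways of computing the ratios, in which the median ranged from 0.24 to 0.69. The siRNA 2 median stayed below 0 but came to -0.13 with median centring, against -0.57 to -0.50 in the other 6. MT2A had signals of 65676 and 105142 on the siRNA 1 array, then 84200 and 75749 with siRNA 2. MT1F had 1517 and 2131 against 1493 and 1010. These genes are near copies of each other, so that their probes may share transcripts.

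Among inflammatory genes the chemokine CXCL1 was lower with both duplexes, with signals of 7765 and 3062 against 9254 and 4530 and log2 ratios of -1.34 and -1.03. IL1B had -0.99 and -0.74, and IL6 differed between them with -0.76 and 0.93. In the small GTPases, RRAS2, a relative of RAS, had -1.67 and -0.90, and RAP2A had -1.14 and -0.18. The E-protein transcription factor TCF3 had -1.83 and -0.54 (second probe -1.12 and -0.20). CCNG1, a cyclin of the G type, had -1.16 and -0.44, and the histone gene H4C13 had -1.11 and -1.30. Of 58 clustered histone genes, however, 35 were above 0 with siRNA 1, and the list medians were 0.20 and 0.39. Under the alternatives the siRNA 1 median of that list crossed 0, from -0.07 to 0.38. The taurine transporter SLC6A6 had 1.12 and 0.68 on 1 of its 3 probes, while the other probes gave 0.02 and 0.01 with siRNA 1. SLC6A6 and ZNF598, a ubiquitin ligase that senses collided ribosomes (-1.04 and -0.33), were the members past 2-fold among 241 solute carriers and 361 zinc finger genes.

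Some other genes of the lists stayed under 2-fold with siRNA 1. Of the matrix genes, SPARC had signals of 551 and 896 on the siRNA 1 array and 554 and 230 with siRNA 2, with 0.70 and -1.27, TGFBI had 0.70 and -0.89, and the laminin LAMC1 0.73 and -0.11. HOXB13, a homeobox factor of prostate epithelium, had signals of 6672 and 12608, then 6480 and 6942 with siRNA 2, with 0.92 and 0.10, although its second probe gave 0.12 and -0.60. Within the RNA interference machinery, which every siRNA uses, the median was 0.00 over 16 genes. DICER1, which cuts precursors into small RNAs, had 0.85 and 0.27, and AGO2, the slicing Argonaute, -0.57 and -0.55. Cholesterol and fatty acid synthesis genes had medians of 0.13 and 0.20. In the lists of MYC targets, oxidative phosphorylation, proteasome, keratin, polycomb, RNA polymerase, Mediator and mitochondrial ribosomal genes, no gene was past 2-fold and the medians lay between -0.04 and 0.11.

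Of the genes that the study followed after SUB1 knockdown, PLK1 is given above. BUB1B, a spindle checkpoint kinase, had signals of 576 and 301 on the siRNA 1 array, then 561 and 222 with siRNA 2, with -0.94 and -1.34. MYC had 2018 and 1360 against 2059 and 1839, with -0.57 and -0.16. Its second, dimmer probe had signals of 116 and 155 on the siRNA 1 array and gave 0.42 and 0.10. That probe is annotated to a MYC transcript that starts at promoter P0. The MYC probes may therefore not read the same transcript, and no direction is drawn for the gene. CDKN1B, the inhibitor p27, had 0.71 and 1.21 (second probe 0.27 and 0.34). Of these, PLK1 alone reached 2-fold with siRNA 1. The side of 2-fold turned on the processing for PLK1 and BUB1B: PLK1 had -0.79 as the mean of its probes, and BUB1B -1.01 with a normexp offset of 16. DDIT4, an inhibitor of mTORC1, had 0.51 and 1.68, and STC1 had -0.16 and 0.11; neither was followed after SUB1 knockdown. Of the reference genes, GAPDH had signals of 40872 and 41143 with a log2 ratio of 0.01, and ACTB had 0.75 with the probe used, although its 4 probes ranged from -0.09 to 0.75.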

How the data were processed

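PC3 cells treated with SUB1 siRNA (Cy5) or Non-T siRNA (Cy3) were profiled on 2 Agilent whole human genome arrays, 1 per duplex. The authors scanned the arrays and deposited, from Agilent Feature Extraction 9.5.1.1, each spot's Cy3 and Cy5 intensity, the local background intensity and a processed intensity that the software had corrected for background, spatial trend and dye. They also deposited a table of log2 ratios per probe, normalized by loess on each array with agilp. Its scale and direction (log2, Cy5 over Cy3) were settled against the scanner values. The slope was 1.01 and Pearson's r across probes was 0.958 on the siRNA 1 array, on which the column median was -0.01.

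In limma 3.58.1 (R 4.3.3), normexp with an offset of 50 subtracted the median local background from the mean signals here, and loess with a span of 0.3 normalized the log2 ratios. Signals printed for a channel are after loess and quantile scaling of the mean signal. Control spots and 112 outlier-flagged spots were left out, and replicate spots were averaged. The filter on dim probes asked that, on each array, a share of 0.5 or more of the spots stood well above background in Cy3 or in Cy5, which 25673 of 41000 probes met. The probe with the highest mean signal over both channels and both arrays stood for a gene. Of 19218 genes, 13129 were named through the RefSeq table of GRCh38.p14 and 6089 kept the file's name. Probe coordinates are hg18, per the file headers. Promoters are from RefSeq (GRCh38.p14) and were matched by symbol. Tables were made with Python 3.11.15 and pandas 2.3.3. The background and loess steps were tested by raising the Cy5 signal of bright spots on the real arrays by a known ratio.

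A gene was counted as higher or lower at an absolute fold change of 2, with no test, since each duplex has 1 array. The genes named are SUB1, the genes the study follows, ACTB and GAPDH, the 15 largest differences in each direction, the 10 largest with siRNA 2 within 0.5 of 0, and, in each of 41 gene lists, the 3 most different members and all past 2-fold. Some genes that this rule or the marker lists name are not reported here. The lists and the genes described were chosen with earlier results of these data known. Alternatives covered background, normalization, filter, probe choice, outlier spots and thresholds.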

Additional observations from a re-analysis of the deposited data

Results flagged for a closer look

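Results were marked for a closer look where SUB1 siRNA 1 and SUB1 siRNA 2 gave opposite signs against Non-T siRNA, each at least 0.25 from 0 on the log2 scale. With 1 array per duplex these differences were not tested. The genes considered were those past 2-fold with siRNA 1 and those that the rule for named genes gave, and of all genes measured 352 (1.83%) had such opposite signs. Of the genes past 2-fold with siRNA 1, 9 had them. The higher ones with siRNA 1 were ROR1 (1.94 and -0.31), IGFBP5 (1.62 and -0.33), CITED4 (1.28 and -0.53), the unnamed transcript THC2655811 (1.10 and -0.35), PRKCA (1.08 and -0.44) and ADAM19 (1.01 and -0.26). The lower ones were IGFBP3 (-1.40 and 0.32), PNRC2 (-1.18 and 0.54) and PKIB (-1.05 and 0.39). The second probe of IGFBP3 (-0.94 and -0.11) and that of PRKCA (-0.07 with siRNA 1) did not show the reversal. The second probe of ROR1 gave 1.67 and -0.03, so with siRNA 2 it lay within 0.25 of 0.

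Under 2-fold, SPARC (0.70 and -1.27), TGFBI (0.70 and -0.89), MT1F (0.49 and -0.56) and MT1H (0.38 and -0.43) were higher with siRNA 1 and lower with siRNA 2. Lower with siRNA 1 and higher with siRNA 2 were TRIB3 (-0.97 and 0.69), SLC25A20 (-0.83 and 0.42), ISG20 (-0.82 and 0.39), IL6 (-0.76 and 0.93), BMI1 (-0.71 and 0.38), PMAIP1 (-0.69 and 0.44), DUSP1 (-0.58 and 0.92) and GADD45B (-0.49 and 0.29). The second probe of TRIB3 gave -0.89 and 0.13, and that of GADD45B gave -0.52 and -0.07, with no opposite sign. For the metallothionein list the siRNA 1 median was 0.27 and the siRNA 2 median -0.57. With median centring these were 0.69 and -0.13, so that the siRNA 2 median was then within 0.25 of 0.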

How the results depend on the processing

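With centring on the median in place of loess, 137 genes were at least 2-fold higher and 56 lower (45 and 38 with siRNA 2 within 0.5 of 0), and the medians of the mitosis and DNA replication lists were -0.62 and -0.21. The scanner software's processed signals gave 983 higher and 214 lower (285 and 112). A normexp offset of 16 gave 84 higher, of which 35 had siRNA 2 within 0.5 of 0. The second-brightest probe, which 4896 genes have, gave 8 higher and 15 lower (4 and 9), with list medians of -0.51 over 12 mitosis genes and -0.23 over 15 replication genes. A fold change of 1.5 gave 467 higher and 580 lower. With siRNA 2 within 0.25 of 0, 6 higher genes were left. In place of 0.02, the median of all genes was 0.13 with median centring and 0.14 with processed signals.

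Under the 7 other ways of computing the ratios, all 117 lower genes stayed below 0 and all 40 higher genes above 0, and 56 to 117 and 37 to 40 of them stayed past 2-fold. The ratio of PRKCA turned to -0.070 with its second probe. Of 457 values for single genes under the alternatives, 445 kept their side of 2-fold. Part of that count was fixed beforehand, since keeping outlier spots or changing the filter on dim probes hardly moves a gene's value. With these settings SUB1 stayed at -3.30. The count also takes no account of sign under 2-fold, as for MYC, which ranged from -0.57 to 0.42. SUB1 ranged from -3.75 to -3.04. The cause of these shifts was not tested. No paired analysis was possible because each duplex has 1 array. With 1 array no error between cultures can be given, and signals close to background limit the dim genes.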

Other observations

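Genes past 2-fold with SUB1 siRNA 1 were spread over the chromosomes. Among RefSeq-named genes, chromosome 4 held the highest share of those with over 100 genes measured, 2.44% of 451 genes (9 lower and 2 higher), followed by chromosome 5 with 1.72% of 583. Chromosome 11 held the lowest, 0.383% of 783. Over all features measured the share was 0.817%. The lower genes of chromosome 4 include the pseudogene ANXA2P1, whose probe may read ANXA2 on chromosome 15. Differences between chromosomes were not tested.

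Of the genes past 2-fold, 50 had more than 1 kept probe. All probes lay in the same direction for 47 of these, and all were past 2-fold for 13.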
